A study of Mus musculus with 27 samples.

Results

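The interleukin-1 family was followed through 9 genes, each taken by its symbol: the ligands Il1a, Il1b, Il18 and Il36g, the soluble antagonists Il1rn and Il18bp, and the receptor genes Il1r1, Il1rap and Il1r2. They were 9 of the 45070 genes in the table, and 8 were listed under these symbols. Il36g was listed under its older symbol Il1f9, which RefSeq gives as the same gene, and is called Il1f9 here. The samples were wild type bone marrow-derived macrophages (BMDMs), macrophages grown in culture from the marrow of male C57/BL6 mice aged 6 to 8 weeks. All groups had first been kept with DMSO, a drug solvent, for 1 h. They were then left untreated, or received LPS, the bacterial lipopolysaccharide sensed by TLR4, at 10 ng/ml, or the cytokine IL-4 at 10 ng/ml, for 0.5, 1, 2 or 4 h. Each of the 9 groups had 3 samples, numbered R1, R2 and R3 in the labels. RNA bound to chromatin was measured, which is rich in transcripts that are still being made, and the values are the authors' normalised read counts.

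As background, IL-1α and IL-1β are the founding ligands of the family and bind the receptor IL-1R1, which signals only together with the accessory chain encoded by Il1rap. The antagonist encoded by Il1rn occupies IL-1R1 without signalling, and IL-1R2 is a decoy that binds ligand and lacks a signalling domain. IL-18 is a related ligand with its own receptor and with a secreted inhibitor, IL-18BP. Macrophages are a major source of IL-1β, which like IL-18 is made as a precursor and cut by caspase-1 before it acts. A value for chromatin RNA says nothing of that later step.

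Sums of normalised read counts were 2488987 to 2578543 in untreated samples, 2469768 to 2790981 after IL-4 and 3571492 to 4058199 after LPS. They follow the authors' scaling and are not sequencing depths, which these values do not give. The R1 samples stood apart from the others. Over the 620 genes with a mean of at least 1000, the SD of the log2 difference between R2 and R3 of a group was 0.138 to 0.287, against 0.371 to 0.451 between R1 and R2. Whether the replicates were separate cultures is not stated in the sources used here, so p-values measure only the spread between these samples. The 10 macrophage markers all had a mean of at least 10 in every treatment, with summed values of 11590 to 29611. The 10 neutrophil markers summed to 15 to 29 in untreated samples, 23 to 164 after LPS and 17 to 62 after IL-4, and Ly6g was at 0 in all samples. In LPS samples the neutrophil sum was 77 to 164 in R1 and 23 to 58 in R2 and R3. Over all samples the 8 fibroblast and epithelial markers summed to 89 to 224 in R1 and 32 to 85 in R2 and R3, with Krt8 at 0 throughout, and the dendritic cell markers to 10 to 103 in R1 and 8 to 53 in R2 and R3, with Xcr1 at 0 throughout.

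All 9 genes passed the filter of at least 10 in at least 3 samples, but not by the same route. Il18, Il18bp and Il1rap were at 10 or more in all 27 samples. Il1a, Il1rn, Il1r2 and Il1f9 reached 10 only in LPS samples, and Il1b did so outside LPS in 1 untreated sample. Il1r1 reached 10 in 17 samples, 12 of them outside LPS, and in no untreated sample. These 5 and Il1r1 passed through groups in which they were high. Their being called over the LPS course, or for Il1r1 over either course, is therefore not separate support. Nor is their part in the counts of genes risen, the medians and the comparisons of LPS with IL-4 below. Il1r2 reached 10 in 3 samples and Il1f9 in 4, the smallest numbers among the 9.

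LPS raised most of the family, with time courses that differed between genes. Il1a and Il1b were near their highest level at 0.5 and 1 h and lower later, Il18 and Il1rn were highest at 4 h, and Il1r1 was high at 1 h only. All 9 genes were called over the LPS course, where 87.6% of all 13901 tested genes were also called, so this count does not set the family apart. At 0.5 h 6 of the 9 rose and 0 fell, against 19.6% of all genes higher and 34.4% lower. At 1 h 8 rose and 1 fell, against 24.8% higher and 39% lower. At 2 h 8 rose and 0 fell, against 26.9% higher and 39% lower, and at 4 h 9 rose and 0 fell, against 25.9% higher and 37.6% lower. The median log2 difference over the 9 genes was 1.46, 2.66, 2.85 and 3.23 at the 4 times. The median over all tested genes was -0.24, -0.30, -0.29 and -0.26, and log2 differences below are given as fitted, without this shift taken off. Without R3 the count at 1 h was 5 of 9. The count at 4 h was 6 of 9 without R2, with no filter and with a pseudocount (the number added before the log) of 8. Over the course it was 7 of 9 with no filter and without R3, where Il1r2 and Il1f9 lost their calls. It was 8 of 9 with a pseudocount of 8, without R2 and with R2 and R3 averaged, where Il1f9 lost its call.

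**Figure D1:**
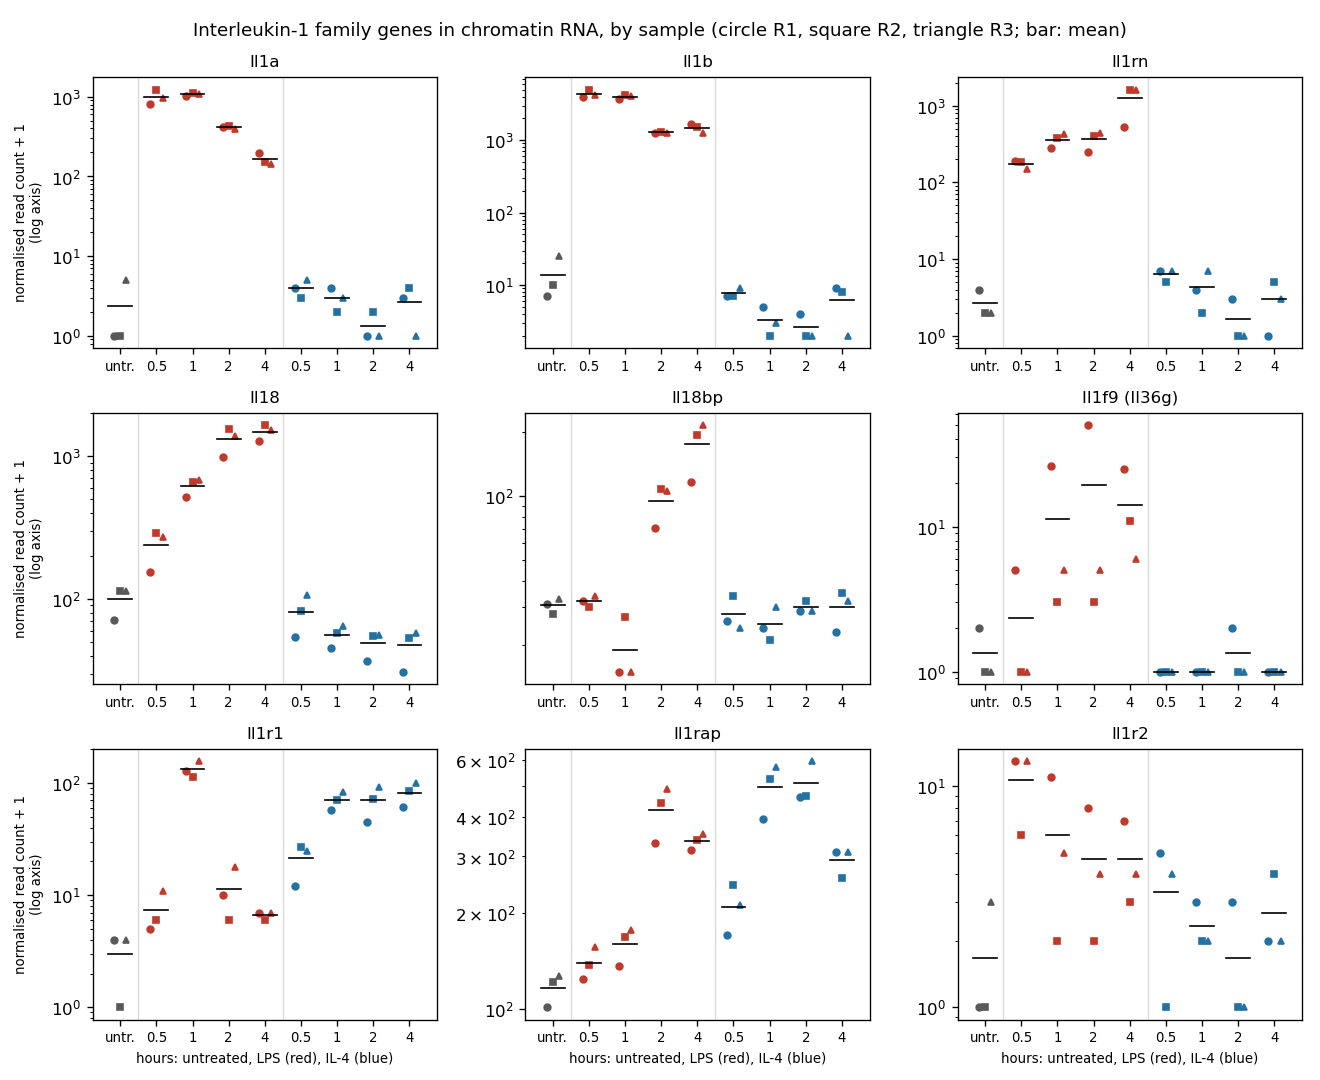
Normalised read count plus 1 (log axis) of the 9 genes in each sample, for untreated cells (grey), LPS (red) and IL-4 (blue) in order of time, with a bar at the mean of each group of 3. Il1a, Il1b and Il1rn lie above 100 in every LPS sample and at 24 or less elsewhere, while Il1r1 and Il1rap are raised by either stimulus.

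Il1a and Il1b are neighbours on chromosome 2, both on the minus strand and 54.6 kb apart. Il1a (Entrez 16175) lies at chr2:129299610-129309972 and Il1b (Entrez 16176) at chr2:129364578-129371139 (GRCm38). They are shown here with the 300 bases around their RefSeq starts (GRCm38.p6, 250 before to 50 after, on the minus strand), because they rose together and by the largest fitted differences at 0.5 h. The capitals mark matches, on either strand, to letters searched in all 32851 RefSeq promoters: TATAAA, held by 13.6% of promoters, the AP-1 letters TGANTCA (7.81%), the PU.1 letters GAGGAA (28.3%) and the C/EBP letters TTNNGNAA (40.7%).
Il1a, chr2:129309923-129310222: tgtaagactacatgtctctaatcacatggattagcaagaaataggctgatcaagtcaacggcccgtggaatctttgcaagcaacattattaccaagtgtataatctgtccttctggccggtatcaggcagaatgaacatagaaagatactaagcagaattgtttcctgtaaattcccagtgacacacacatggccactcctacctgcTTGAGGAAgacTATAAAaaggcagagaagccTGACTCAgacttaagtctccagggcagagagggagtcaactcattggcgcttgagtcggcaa
Il1b, chr2:129371090-129371389: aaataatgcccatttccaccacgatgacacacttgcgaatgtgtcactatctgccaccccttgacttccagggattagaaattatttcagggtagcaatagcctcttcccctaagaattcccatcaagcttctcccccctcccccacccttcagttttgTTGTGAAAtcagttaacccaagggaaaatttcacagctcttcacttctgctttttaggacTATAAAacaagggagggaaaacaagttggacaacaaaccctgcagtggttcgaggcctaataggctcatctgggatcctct
Both held TATAAA, at position -32 in Il1a and -31 in Il1b counted from the start. Il1a also held TGACTCA at -12 and GAGGAA at -41, the latter within a C/EBP match at -43. Il1b held a C/EBP match at -91. The NF-κB letters, held by 4.51% of all promoters, were found in 1 of the 12 promoter windows of the family, at -232 of a second start of Il1r1. A match is a description of these letters, and its absence says nothing of the factor.

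Il1b, the precursor of IL-1β, had the highest normalised read counts of the 9 genes at 0.5 and 1 h of LPS. Its values in R1, R2 and R3 were 6, 9 and 24 in untreated cells. They were 3991, 4997 and 4151 at 0.5 h of LPS and 3663, 4173 and 4035 at 1 h. At 2 h they were 1272, 1312 and 1248, and at 4 h 1647, 1525 and 1241. Every LPS sample lay far above every untreated sample, and the samples at 2 and 4 h lay below all those at 0.5 and 1 h. On the log2 scale the fitted differences from untreated were 8.50, 8.36, 6.73 and 6.92 (SE 0.31, adjusted p between 5.59e-12 and 3.81e-11). The drop between 1 and 2 h was called (log2 difference -1.63, SE 0.31, adjusted p = 0.000430), and those between 0.5 and 1 h (-0.14, adjusted p = 0.730) and between 2 and 4 h (0.19, adjusted p = 0.716) were not.

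Il1a, which encodes IL-1α, was at 0, 0 and 4 in untreated cells. It was at 822, 1233 and 961 at 0.5 h of LPS and at 1028, 1107 and 1089 at 1 h. It was then at 417, 427 and 397 at 2 h and at 194, 151 and 142 at 4 h. No LPS sample overlapped an untreated sample, and the groups at 1, 2 and 4 h did not overlap each other. The fitted log2 differences were 9.18, 9.30, 7.92 and 6.56 (SE 0.43, adjusted p between 7.57e-11 and 2.25e-09). They depend on the pseudocount of 1, since the untreated values are near 0. Il1a fell from 1 to 2 h (log2 difference -1.38, adjusted p = 0.0160) and again from 2 to 4 h (-1.36, adjusted p = 0.0313). Both calls were lost without R2 (adjusted p = 0.107 and 0.217) and with no filter (0.0801 and 0.132), and the second also with equal totals (0.0562) and with R2 and R3 averaged (0.0910). The ratio of Il1a to Il1b lay between 0.206 and 0.328 in all LPS samples up to 2 h. At 4 h it lay between 0.0990 and 0.118, below every earlier LPS sample.

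Non-coding genes overlap both ligands on the opposite strand. Gm14023 shares 8217 bases with Il1a, which is 79.3% of Il1a, and its summed value was 85.2% to 86.9% of that of Il1a in the LPS groups. Il1bos shares 1238 bases with Il1b, and its summed value was 28.4% to 30.3% of that of Il1b. Use of strand in the counting is not given in the sources used here, so reads of a gene and of its antisense partner cannot be told apart.

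Il1rn, the gene of the IL-1 receptor antagonist (Entrez 16181, chr2:24336860-24351491, plus strand), rose with the ligands but was highest when they had fallen. Its values were 3, 1 and 1 in untreated cells. They were 187, 185 and 148 at 0.5 h of LPS, 281, 377 and 421 at 1 h, and 245, 398 and 443 at 2 h. At 4 h they were 533, 1621 and 1610, with R1 at the bottom of the group but still above every sample of the earlier times. Fitted log2 differences were 6.10, 7.14, 7.13 and 8.79 (SE 0.38, adjusted p between 1.98e-11 and 3.89e-09). The rise from 2 to 4 h was called (1.67, SE 0.38, adjusted p = 0.00495), but not without R2 (adjusted p = 0.122) or without R3 (adjusted p = 0.0902). The rise from 0.5 to 1 h (1.04, adjusted p = 0.0337) was likewise lost without R2 (adjusted p = 0.159) and without R3 (adjusted p = 0.246).

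The ratio of Il1rn to Il1b moved upward through the LPS course. After 0.5 h it lay between 0.0357 and 0.0469, after 1 h between 0.0767 and 0.104, and after 2 h between 0.193 and 0.355. At 4 h it was 0.324 in R1, 1.06 in R2 and 1.30 in R3, so R1 at 4 h lay within the range of the 2 h samples, while within each replicate number the ratio was higher at each later time. The ratio of the summed values was 0.0396, 0.0909, 0.283 and 0.853. This compares the same genes over time and is not a ratio of molecules, since the genes differ in length.

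**Figure D2:**
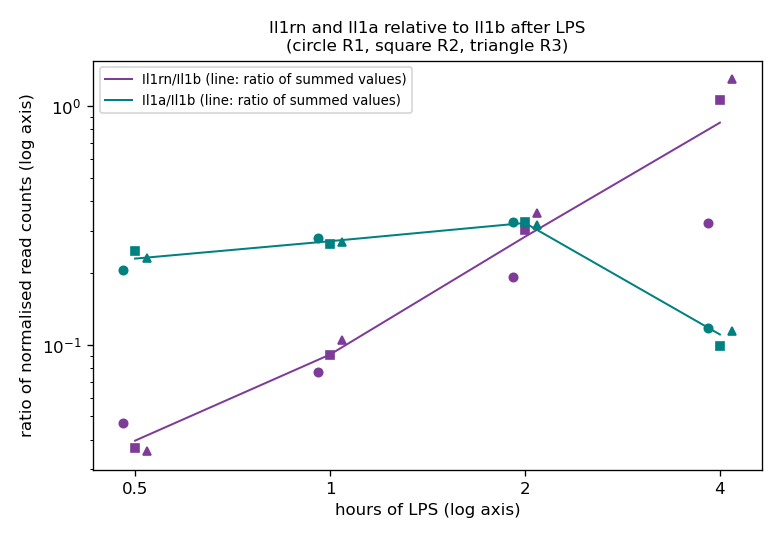
Ratio of normalised read counts (log axis) of Il1rn to Il1b and of Il1a to Il1b in each LPS sample, against hours of LPS (log axis), with lines through the ratio of the values summed over the 3 samples. Il1rn to Il1b goes from 0.0396 at 0.5 h to 0.853 at 4 h, while Il1a to Il1b is between 0.230 and 0.324 up to 2 h and 0.110 at 4 h.

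RefSeq gives Il1rn 3 starts, and the window at the start furthest downstream is shown because it held the most matches, in capitals. They are the STAT6 letters at -201 (the motif is held by 6.95% of all promoters), C/EBP matches at -161, -65 and -64, the last 2 overlapping, and TATAAA on the minus strand at 15.
Il1rn, chr2:24345121-24345420, plus strand: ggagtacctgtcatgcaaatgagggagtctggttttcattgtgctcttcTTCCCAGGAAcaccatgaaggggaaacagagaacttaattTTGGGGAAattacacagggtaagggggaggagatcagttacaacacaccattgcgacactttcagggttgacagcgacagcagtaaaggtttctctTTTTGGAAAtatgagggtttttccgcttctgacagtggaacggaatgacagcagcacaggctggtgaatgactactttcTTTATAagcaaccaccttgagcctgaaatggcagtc
The window of the most upstream start held TGAGTCA, an AP-1 match, at -141.

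Il18 (Entrez 16173, chr9:50554700-50581841, plus strand) was the ligand with a steady level before stimulation. Its values were 70, 113 and 113 in untreated cells. After 0.5 h of LPS they were 153, 287 and 270, and after 1 h 513, 660 and 680. They reached 987, 1544 and 1390 at 2 h, followed by 1277, 1641 and 1526 at the last time. The means rose to 2.40, 6.26 and 13.2 times untreated at the first 3 times, and no group overlapped the one before it except 4 h with 2 h. The fitted log2 differences were 1.23, 2.66, 3.72 and 3.92 (SE 0.25, adjusted p between 1.41e-09 and 0.000583). The steps from 0.5 to 1 h (1.42, adjusted p = 0.000199) and from 1 to 2 h (1.07, adjusted p = 0.00222) were called, and the step from 2 to 4 h was 0.20 (adjusted p = 0.633).

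IL-4 moved Il18 the other way. After 0.5 h the values were 53, 81 and 105, and after 1 h 44, 57 and 64. They were 36, 54 and 55 at 2 h, followed by 30, 52 and 57 at the last time. All samples from 1 h on lay below the lowest untreated sample of 70. On the log2 scale Il18 fell by 1.01 after 2 h (SE 0.30, adjusted p = 0.0228) and by 1.09 at 4 h (adjusted p = 0.0158), with -0.33 (adjusted p = 0.547) at 0.5 h and -0.81 (adjusted p = 0.0733) at 1 h. The 1 h difference was called under median-of-ratios rescaling (adjusted p = 0.0470), with equal totals (0.0365) and without R1 (0.00115). The calls at 2 and 4 h were lost without R2 (adjusted p = 0.213 at 2 h and 0.176 at 4 h) and without R3 (adjusted p = 0.134 and 0.0954). Within each replicate number the value at every IL-4 time was below the untreated one.

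The window at the start of Il18 is shown because Il18 moved in opposite directions under the 2 stimuli. Il1b, whose window is shown above, did so too, with few reads outside LPS. The capitals are a STAT6 match at -46 and TATAAA on the minus strand at -175.
Il18, chr9:50554450-50554749, plus strand: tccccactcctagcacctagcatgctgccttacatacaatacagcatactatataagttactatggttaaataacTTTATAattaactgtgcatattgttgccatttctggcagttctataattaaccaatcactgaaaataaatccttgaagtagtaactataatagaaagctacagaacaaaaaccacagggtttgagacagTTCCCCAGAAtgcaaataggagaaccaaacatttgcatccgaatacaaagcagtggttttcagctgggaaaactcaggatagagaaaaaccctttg
Of the 12 windows of the family, 4 held STAT6 letters, beside 6.95% of all promoters. They belong to 3 genes, Il18, Il1rn and Il1f9. The Il1rn windows among them overlap and hold the same match. No window of Il1r1 or Il1rap, the genes raised by IL-4, held these letters. Bco2 and Tex12 overlap Il18 on the opposite strand. Their shared bases are 1.62% and 15.2% of Il18, and in LPS groups the summed value of Tex12 was 18.7% to 30.7% of that of Il18.

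Il18bp, the gene of the inhibitor that binds IL-18 (Entrez 16068, chr7:102015074-102018232, minus strand), rose after LPS, but later than Il18. Its values were 30, 27 and 32 in untreated cells and 31, 29 and 33 at 0.5 h of LPS, with overlapping ranges. They were 14, 26 and 14 at 1 h, below every untreated sample, then 70, 107 and 105 at 2 h and 115, 193 and 214 at 4 h. On the log2 scale it fell by 0.75 after 1 h (SE 0.27, adjusted p = 0.0251) and rose by 1.61 at 2 h (adjusted p = 8.63e-05) and 2.47 at 4 h (adjusted p = 1.00e-06). Taken relative to the median gene the value at 1 h was -0.44, and the call was lost under median-of-ratios rescaling (adjusted p = 0.0953) and without R3 (adjusted p = 0.244). The ratio of Il18 to Il18bp was 2.33 to 4.19 in untreated samples, 25.4 to 48.6 at 1 h of LPS and 7.13 to 11.1 at 4 h. Under IL-4 Il18bp was not called at any time, with means of 24 to 29 and adjusted p between 0.332 and 0.941.

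Il1f9 encodes IL-36γ, a ligand of the receptor made from Il1rl2 and Il1rap (Entrez 215257, chr2:24186476-24193567, plus strand, 143.3 kb before Il1rn). Its values were 1, 0 and 0 in untreated cells and 4, 0 and 0 after 0.5 h of LPS. After 1 h they were 25, 2 and 4, after 2 h 49, 2 and 4, and after 4 h 24, 10 and 5. R1 was the highest in every LPS group, and R2 and R3 stayed at 10 or less. In the fit the log2 differences were 0.44 (adjusted p = 0.733), 2.54 (0.0374), 2.85 (0.0207) and 3.23 (0.0108), with an SE of 1.00. The 3 calls were lost with a pseudocount of 8 (adjusted p between 0.0608 and 0.152) and without R3 (between 0.0582 and 0.142). The R1 samples of LPS also had the higher sums of neutrophil markers, 77, 109, 164 and 117 over the 4 times against 23 to 58 in R2 and R3. Over all samples the R1 sums of fibroblast and epithelial markers lay above those of R2 and R3, as given above. Sums of dendritic cell markers overlapped, with medians of 24 in R1, 17 in R2 and 18 in R3. The part of these in the Il1f9 values was not tested.

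**Figure D3:**
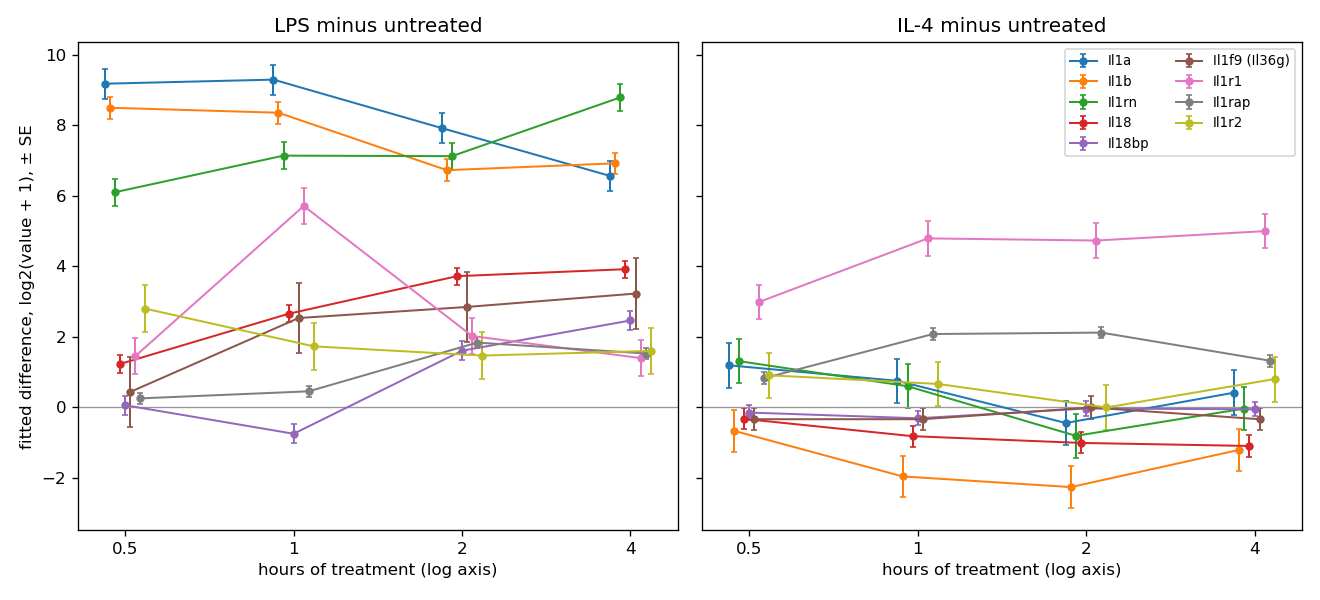
Fitted difference from untreated on the log2(value + 1) scale, with SE bars, for the 9 genes against hours (log axis) of LPS on the left and IL-4 on the right; each line is a gene, and either panel uses the same 3 untreated samples. After LPS Il1a starts at 9.18 and ends at 6.56 while Il1rn ends at 8.79. From 1 h of IL-4 on, Il1r1 and Il1rap lie furthest above 0.

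Under IL-4 the receptor genes Il1r1 and Il1rap rose, the ligand genes Il1b and Il18 fell, and the other 5 genes were not called over the course. By the F test over the course Il1b (adjusted p = 0.0332) and Il18 (0.0336) were near the threshold. Both calls were lost with no filter, without R2, without R3 and with R2 and R3 averaged. Without R1, Il1rn was called over the course (adjusted p = 0.0165). Of the 9 genes, 4 were called over the IL-4 course, beside 40.3% of all tested genes, so the count is near the background. At 0.5 h 2 rose and 0 fell, against 8.15% of all genes higher and 8.14% lower. At 1 h 2 rose and 1 fell (11.1% higher and 9.83% lower of all genes), at 2 h 2 rose and 2 fell (14.3% and 13.2%), and at 4 h 2 rose and 1 fell (13.4% and 12.5%). The median log2 difference over the 9 genes was 0.83, 0.60, -0.03 and -0.03, beside medians between -0.02 and 0.02 over all tested genes.

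Il1r1, the gene of the signalling receptor (Entrez 16177, chr1:40225080-40316177, plus strand), rose under either stimulus but with a different course. Its values were 3, 0 and 3 in untreated cells. After 0.5 h of IL-4 they were 11, 26 and 24, and after 1 h 57, 70 and 82. They stayed at 44, 71 and 92 after 2 h, followed by 60, 84 and 100 at the last time. Every IL-4 sample lay above every untreated sample, and from 1 h on the groups overlapped each other. The fitted log2 differences were 2.99, 4.79, 4.73 and 5.00 (SE 0.49, adjusted p between 5.19e-06 and 0.000687).

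Under LPS Il1r1 made a single sharp peak. After 0.5 h its values were 4, 5 and 10, and after 1 h they were 128, 113 and 156. They then came to 9, 5 and 17 after 2 h, followed by 6, 5 and 6 at the last time. The 3 samples at 1 h were the highest of all 27, and those at 2 h were back at 17 or less. The log2 difference was 5.71 at 1 h (SE 0.51, adjusted p = 1.41e-07) and 2.03 at 2 h (adjusted p = 0.00273). The rise from 0.5 to 1 h was 4.26 (adjusted p = 6.55e-06), and the fall from 1 to 2 h was -3.69 (adjusted p = 2.51e-05). The calls at 0.5 h (1.46, adjusted p = 0.0256) and at 4 h (1.40, adjusted p = 0.0262) rested on values of 4 to 10 and were lost with a pseudocount of 8 (adjusted p = 0.0761 and 0.0941) and without R2 (adjusted p = 0.163 and 0.176).

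The window at the upstream start of Il1r1 is shown since this gene answered both stimuli. The capitals are C/EBP matches on the minus strand at -154 and -133 and the CRE core letters TGACG, held by 20.8% of all promoters, on the minus strand at -23.
Il1r1, chr1:40224830-40225129, plus strand: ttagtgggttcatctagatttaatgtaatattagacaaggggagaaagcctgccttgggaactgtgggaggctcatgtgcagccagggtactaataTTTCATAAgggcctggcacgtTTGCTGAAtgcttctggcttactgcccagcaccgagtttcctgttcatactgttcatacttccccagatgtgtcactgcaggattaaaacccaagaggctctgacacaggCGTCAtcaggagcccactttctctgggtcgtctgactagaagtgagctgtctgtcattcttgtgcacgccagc

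Il1rap, the gene of the accessory chain shared by several receptors of the family (Entrez 16180, chr16:26581705-26730128, plus strand), was expressed in all samples. Its values were 100, 120 and 126 in untreated cells. IL-4 gave 169, 243 and 210 after 0.5 h, and 391, 525 and 570 after 1 h. The values after 2 h were 461, 464 and 596, followed by 308, 255 and 309 at the last time. The means were 1.80, 4.29, 4.40 and 2.52 times untreated, and no IL-4 sample overlapped untreated. From the fit, log2 differences were 0.83, 2.08, 2.12 and 1.33 (SE 0.17, adjusted p between 5.36e-07 and 0.00328). The call at 0.5 h was lost without R2 (adjusted p = 0.115) and without R3 (adjusted p = 0.0519).

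LPS raised Il1rap later. Its values were 123, 136 and 155 after 0.5 h, and 135, 167 and 175 after 1 h. They were 329, 440 and 488 after 2 h, followed by 313, 336 and 352 at the last time. The ranges at 0.5 h and untreated overlapped, and the samples at 2 and 4 h lay above all earlier ones. The log2 differences were 0.26 (adjusted p = 0.191), 0.46 (0.0209), 1.84 (6.98e-08) and 1.53 (5.94e-07), and the step from 1 to 2 h was 1.38 (adjusted p = 3.83e-06). The difference at 1 h changed sign when samples were scaled to equal totals, to -0.12 (adjusted p = 0.526), while relative to the median gene it was 0.76. Its call was also lost without R2 (adjusted p = 0.159), without R3 (0.0950) and with R2 and R3 averaged (0.115). The 0.5 h difference was called under median-of-ratios rescaling (0.50, adjusted p = 0.00548). Gm20319 overlaps 10.4% of Il1rap on the opposite strand, at no more than 6.69% of its summed value in any group.

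Il1r2, the decoy receptor gene (Entrez 16178, chr1:40084714-40125230, plus strand), stayed near the limit of detection. Its values were 0, 0 and 2 in untreated cells and 12, 5 and 12 after 0.5 h of LPS. After 1 h of LPS they were 10, 1 and 4, after 2 h 7, 1 and 3, and after 4 h 6, 2 and 3, while IL-4 samples were at 0 to 4. Only the 0.5 h samples lay wholly above untreated. The log2 difference there was 2.80 (SE 0.66, adjusted p = 0.00230). Those at 1 h (1.73, adjusted p = 0.0325) and 4 h (1.60, adjusted p = 0.0462) were lost without R1 (adjusted p = 0.251 and 0.189), and at 2 h it was 1.47 (adjusted p = 0.0628). As with Il1f9, the R1 samples held more reads of neutrophil and of fibroblast and epithelial markers, while sums of dendritic cell markers overlapped. The part of these markers in the Il1r2 values was not tested.

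Under IL-4 the ligands other than Il18 and the antagonist Il1rn had few reads. Il1b was at 6, 6 and 8 after 0.5 h, beside 6, 9 and 24 in untreated cells. After 1 h it was at 4, 1 and 2, after 2 h at 3, 1 and 1, and after 4 h at 8, 7 and 1. On the log2 scale it fell by 1.96 after 1 h (SE 0.59, adjusted p = 0.0304) and by 2.26 at 2 h (adjusted p = 0.0111), with -1.20 (adjusted p = 0.165) at 4 h, which was called without R1 (-1.98, adjusted p = 0.0361). The calls at 1 and 2 h were lost without R2 (adjusted p = 0.276 and 0.129) and without R3 (adjusted p = 0.152 and 0.0914), and the untreated R3 value of 24 was above the other untreated values. Il1a was at 0 to 4, Il1rn at 0 to 6, Il1r2 at 0 to 4 and Il1f9 at 0 or 1 in the IL-4 samples, and none of these 4 was called.

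Between successive LPS times, 4 of the 9 genes changed from 0.5 to 1 h, where 49.7% of all genes did, 6 from 1 to 2 h (43.3%) and 3 from 2 to 4 h (22.9%). The 6 were Il1a, Il1b and Il1r1, which fell, and Il18, Il18bp and Il1rap, which rose. From 2 to 4 h Il1rn and Il18bp rose and Il1a fell, and this count was 0 without R2 and 1 without R3.

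LPS and IL-4 were also compared directly at each time, in a fit of all 27 samples. At 0.5 h 7 of the 9 genes differed, where 53.8% of all genes did, at 1 h 6 (64.5%), at 2 h 7 (68.6%) and at 4 h 7 (68%). Il1a, Il1b, Il1rn and Il18 were higher after LPS at all 4 times. The difference was 6.14 to 8.54 for Il1a, 8.12 to 10.31 for Il1b, 4.79 to 8.82 for Il1rn and 1.56 to 5.01 for Il18, on the log2 scale. Il18bp was higher after LPS at 2 h (1.64, adjusted p = 3.76e-06) and 4 h (2.52, adjusted p = 4.26e-09). Il1f9 was higher after LPS at 1, 2 and 4 h (2.87, 2.85 and 3.56), and Il1r2 at 0.5 h (1.89, adjusted p = 0.0213). The Il1r2 call rested on values of 12 or less and was lost without R2 (adjusted p = 0.0745), without R3 (0.122) and with R2 and R3 averaged (0.0804). That of Il1f9 at 1 h was lost with a pseudocount of 8 (0.0567).

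The receptor genes went the other way at several times. Il1r1 was lower after LPS than after IL-4 at 0.5 h (-1.54, adjusted p = 0.00661), at 2 h (-2.71, adjusted p = 1.49e-05) and at 4 h (-3.60, adjusted p = 2.49e-07). The call at 0.5 h was lost without R2 (adjusted p = 0.0603). At 1 h, when the LPS peak stood, the difference was 0.92 with a 95% interval of -0.03 to 1.87 (adjusted p = 0.0834), and it was called with a pseudocount of 8 (adjusted p = 0.00699) and under median-of-ratios rescaling (adjusted p = 0.0220). Il1rap was lower after LPS at 0.5 h (-0.57, adjusted p = 0.00579) and 1 h (-1.62, adjusted p = 1.15e-08). The call at 0.5 h was lost under median-of-ratios rescaling (-0.33, adjusted p = 0.0733), without R2 (0.168) and with R2 and R3 averaged (0.0616). At 2 h its difference was -0.28 (interval -0.63 to 0.06, adjusted p = 0.139) and at 4 h 0.20 (interval -0.15 to 0.55, adjusted p = 0.293). Scaling decided both: with equal totals Il1rap was called lower after LPS at 2 h (-0.91, adjusted p = 4.05e-05) and at 4 h (-0.42, adjusted p = 0.0292), and under median-of-ratios rescaling it was called higher after LPS at 4 h (0.49, adjusted p = 0.00724). Without R1 it was also called higher at 4 h (0.29, adjusted p = 0.0411). The median gene was also lower after LPS, by 0.23 to 0.36 on this scale.

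**Figure D4:**
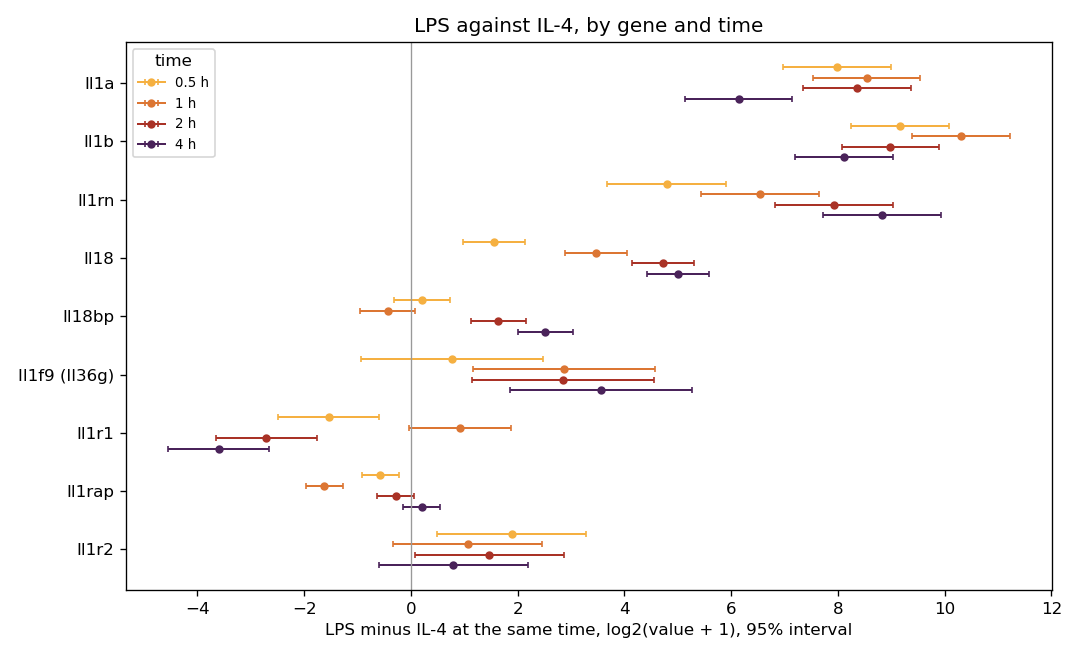
Difference between LPS and IL-4 at the same time on the log2(value + 1) scale, with 95% intervals, for the 9 genes at each of the 4 times, from a fit of all 27 samples. Il1a, Il1b, Il1rn and Il18 lie above 0 at all 4 times, and Il1r1 lies below 0 at 0.5, 2 and 4 h.

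The difference between the stimuli itself changed from 0.5 to 4 h in 7 of the 9 genes, where 53.6% of all genes did. It moved up for Il1rn, Il18, Il18bp, Il1f9 and Il1rap, and down for Il1a and Il1r1. For Il1b the change was -1.04 (adjusted p = 0.171), which was called with a pseudocount of 8 (-1.39, adjusted p = 0.000621) and without R3 (-1.77, adjusted p = 0.0161), and for Il1r2 -1.09 (adjusted p = 0.353).

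Il1r2 and Il1r1 belong to a cluster of 6 receptor genes on chromosome 1, all on the plus strand within 467.0 kb. The 6 genes were not all alike. In order they are Il1r2, Il1r1, Il1rl2, Il1rl1, Il18r1 and Il18rap. Il1rl2, the gene of the IL-36 receptor, starts 8.4 kb after the end of Il1r1. Its values were 4, 5 and 8 in untreated cells, 42, 57 and 54 at 1 h of IL-4 and 32, 31 and 36 at 4 h. It rose at all 4 IL-4 times, by 2.19 on the log2 scale at 0.5 h and 2.39 at 4 h (adjusted p between 3.06e-06 and 8.26e-05 over the 4 times). After LPS it was at 12, 28 and 29 at 1 h, 1.80 above untreated (adjusted p = 0.00315), and at 1, 0 and 2 at 4 h, where it fell by 1.83 (adjusted p = 0.00270). Its Pearson r with Il1r1 over the 27 samples was 0.75, beside -0.10 for Il1r2, 0.28 for Il1rl1 and -0.10 for Il18rap. The 27 points share libraries and treatments, so r is a description.

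The signalling chain of the IL-18 receptor, Il18rap, had a further course. Its values were 7, 16 and 15 in untreated cells, 46, 58 and 62 at 0.5 h of IL-4 and 10, 8 and 13 at 4 h, so the IL-4 rise (2.11, adjusted p = 0.000198 at 0.5 h) had ended by 4 h (-0.22, adjusted p = 0.655). After LPS it was highest at 2 h, with 68, 59 and 92 (log2 difference 2.49, adjusted p = 3.42e-05). Il18r1, which encodes the ligand-binding chain of that receptor, was at 0 to 4 in all samples and did not pass the filter. Il1rl1, the gene of the IL-33 receptor, was at 0 to 15 and was not called over either course.

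**Figure D5:**
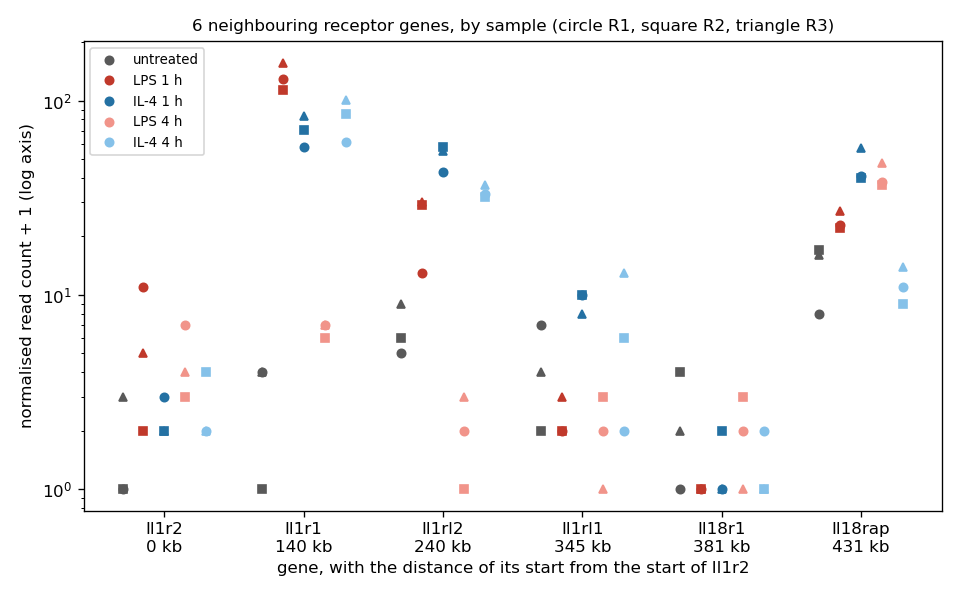
Normalised read count plus 1 (log axis) of the 6 neighbouring receptor genes in each untreated, 1 h and 4 h sample, in the order in which they lie on chromosome 1, with the distance of each start from that of Il1r2. Il1r1 and Il1rl2 are raised at 1 h of either stimulus and stay raised at 4 h of IL-4, while Il1rl1 and Il18r1 stay at 12 or less in the samples drawn.

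Of 12 other ligands and receptors of the family 4 passed the filter. Il18rap, Il1rl2 and Il1rapl2 were called over the LPS course and Il18rap and Il1rl2 over the IL-4 course. Il1rapl2 reached at most 11. The remaining genes were low: Il33 was highest at 1 h of LPS, with 5, 11 and 10, Sigirr, the gene of an inhibitory receptor, was at 6, 8 and 8 in untreated cells and at 0 to 2 in all LPS samples, and Il1f6, Il1f8, Il1f10 and Il1rapl1 were at 0 to 5. Il36rn was not matched to a row.

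Of 23 genes of receptor signalling 22 were tested, and 21 were called over the LPS course, 13 with their largest difference upward and 8 downward, beside 87.6% of all tested genes called, so the share is close to the background. The adaptor Myd88 rose from 18, 18 and 16 to 158, 184 and 190 at 2 h (log2 difference 3.28, adjusted p = 1.19e-10). The kinase Irak2 rose by 3.14 at 4 h, and the ubiquitin ligase Peli1 by 4.17 at 2 h. Sqstm1, an adaptor, rose by 4.20 at 0.5 h. Peli2, a relative of Peli1, fell from 742, 602 and 672 to 12, 5 and 3 at 4 h (-6.63, adjusted p = 4.94e-11), and Tab1 (-2.39 at 1 h), Map3k3 (-2.17 at 4 h) and the kinase Irak4 (-1.68 at 1 h) fell as well. IL-4 called 13 of the 22, with 5 up and 8 down, beside 40.3% of all tested genes. The kinase Map3k8 rose by 1.66 at 2 h, Traf6 by 1.02 at 0.5 h, Tab3 by 0.71 and Ube2v1 by 0.61 at 2 h, while Irak2 (-1.16 at 1 h), Tifa (-1.20 at 1 h), Peli2 (-1.15 at 2 h) and Sqstm1 (-0.87 at 2 h) fell.

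All 20 genes of precursor processing and release were called over the LPS course, 10 up and 10 down, where 87.6% of all tested genes were also called. Nlrp3, the inflammasome sensor, went from 427, 335 and 408 to 16319, 15974 and 13463 at 0.5 h (log2 difference 5.29, adjusted p = 7.43e-14). Casp1, the protease that cuts both precursors, rose later, from 98, 119 and 110 to 736, 1233 and 1486 at 4 h (3.33, adjusted p = 6.95e-08). Casp4 rose by 4.60 at 2 h and Mefv by 5.02 at 4 h. Txnip (-4.28 at 1 h), the ATP-gated channel P2rx7 (-3.19 at 4 h), Nlrp1b (-2.94 at 2 h) and Panx1 (-2.45 at 4 h) fell. IL-4 called 10 of the 20, 3 up and 7 down, near the 40.3% of all tested genes. Mefv (1.76) and Nlrp3 (0.76) rose at 0.5 h and Nek7 (0.43) at 1 h, and Aim2 (-1.38 at 2 h), Casp4 (-1.23 at 2 h), Nlrc4 (-1.08 at 4 h) and Txnip (-0.99 at 0.5 h) fell. The LPS and IL-4 counts use the same 3 untreated samples.

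Levels can be set side by side between genes only per length. Per kb of gene span, the mean normalised read count at 0.5 h of LPS was 667 for Il1b, 97.0 for Il1a, 11.8 for Il1rn, 9.81 for Il18bp and 8.72 for Il18. At 4 h it was 224 for Il1b, 85.7 for Il1rn, 55.1 for Il18bp, 54.6 for Il18 and 15.7 for Il1a. At 1 h of IL-4 it was 7.60 for Il18bp, 3.34 for Il1rap, 2.03 for Il18 and 0.765 for Il1r1. Whether reads were counted over exons or whole genes is not given in the sources used here, and the order depends on it. Per kb of cDNA, Il1b had 3249 at 0.5 h of LPS, but at 4 h Il18 came first with 1141, before Il1b with 1091 and Il1rn with 466.

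The genes whose log2(value + 1) was most like each member were sought among 7565 to 7568 protein-coding genes per member by Pearson r over the 27 samples, which share libraries and treatments. Il1a was most like Noct (r = 0.98), Cxcl2 (0.98) and Il1b (0.98), and Il1b most like Cybb (0.99), Nfkbiz (0.99) and Adam17 (0.99). Il1rn was most like Socs3 (0.98), Ccl3 (0.98) and Ist1 (0.97). Il18 was most like the interferon-responsive genes Ifi203 (0.99) and Helz2 (0.99) and like Pdcd10 (0.98), and Il18bp most like Uba7 (0.97), 4932438A13Rik (0.95) and Pphln1 (0.95). Il1rap was most like Fyn (0.95), Htt (0.92) and Zbtb5 (0.88). The lowest values were those of Il1r1, with Ptpre (0.85), Pcbp2 (0.84) and Ipo7 (0.83), and of Il1r2, with Cd74 (0.82), Maff (0.81) and H2-Eb1 (0.81). Il1f9 was most like Szrd1 (0.91), Marco (0.91) and Tra2a (0.90). Il1r2 and Il1f9 had few reads, with R1 highest or level with the highest in every LPS group. In every LPS group R1 was also the highest sample of Cd74, Maff and H2-Eb1. The part of this R1 difference in the r values of Il1r2 and Il1f9 was not tested.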

How the data were processed

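Chromatin-associated RNA of mouse BMDMs was sequenced from 27 samples, 3 in each of 9 groups. As the study's methods and the submitters' processing notes give it, the authors made random-primed Smart-seq2 libraries, aligned single-end reads to mm10 with TopHat2 2.1.1 and RefSeq transcripts, removed multi-mapping and blacklisted reads (bedtools 2.29.2), counted reads per gene over GRCm38.p6 and scaled the libraries on invariant genes. After this scaling the values were rounded to integers and deposited by the authors, so they are a score in units of normalised reads, not raw counts. Fold changes computed by others were not used.

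The filter kept 13901 of 45070 genes, those reaching 10 or more in 3 or more of 27 samples. limma 3.58.1 in R 4.3.3 was run on log2(value + 1), with a mean-variance trend and Benjamini-Hochberg adjustment over all tested genes, at a threshold of 0.05. The LPS and the IL-4 course had a fit each, of 15 samples with the same 3 untreated ones, a moderated F test over the course and contrasts per time, and LPS and IL-4 were compared in a fit of all 27 samples. Tests are two-sided. The impulse model of the study was not run here. The fits were tested on simulated data. Depth per sample is not given by these values, so precision is the spread between replicates. The 9 genes and the lists were chosen with earlier results of these data known. The named genes were all 9 members, every other ligand and receptor listed, per stimulus up to 4 rises and 4 falls of the largest size in each of the other lists, and the 3 genes most like each member. Motifs were searched on both strands with Python 3.11.15, and those of 10 letters are given by name. Alternatives were the pseudocount, the filter, the scaling, a replicate block, each replicate left out, and R2 and R3 averaged.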

Additional observations from a re-analysis of the deposited data

Results flagged for a closer look

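For 7 genes the difference between LPS and IL-4 was not the same at 4 h as at 0.5 h, by a test of that change itself (limma, fit of all 27 samples, adjusted p over all tested genes). On the log2 scale the difference moved up by 4.03 for Il1rn (adjusted p = 8.96e-05), 3.45 for Il18 (9.65e-08), 2.79 for Il1f9 (0.0480), 2.31 for Il18bp (6.81e-06) and 0.78 for Il1rap (0.00805). It was -1.84 for Il1a (0.0275) and -2.06 for Il1r1 (0.00976). The change of Il1rap went from -0.57 at 0.5 h to 0.20 at 4 h, and at 4 h the sign and the call depended on the scaling. Of the 7, Il1rn, Il18 and Il18bp kept their call under every alternative run, while that of Il1a was lost without R2 and that of Il1r1 without R3. The call of Il1rap was lost without R2, with R2 and R3 averaged and with equal totals (adjusted p = 0.0646). That of Il1f9 was lost with a pseudocount of 8 (0.150), with no filter (0.0813), under median-of-ratios rescaling (0.0518), with equal totals (0.0602), without R2, without R3 and with R2 and R3 averaged.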

How the results depend on the processing

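The largest results kept their direction and call under all alternatives run: the rises of Il1a, Il1b, Il1rn and Il18 at the 4 LPS times, of Il1r1 at 1 h of LPS and at the 4 IL-4 times, and of Il1rap at 1, 2 and 4 h of IL-4, where a gene was tested. Scaling to equal totals reversed Il1rap, to -0.12 at 1 h of LPS and to -0.42 for LPS against IL-4 at 4 h (adjusted p = 0.0292). Under that scaling the median gene after LPS was -0.73 to -0.91, against -0.01 to -0.06 under median-of-ratios rescaling.

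Several counts of called genes moved. The count over the IL-4 course was 2 in place of 4 with no filter, with a mean of at least 50 (which left 2 genes to test) and with R2 and R3 averaged, and 2 to 5 with a replicate left out. With a mean of at least 50 the count was 1 after 0.5 and 1 h of IL-4 and 2 after 2 h. With R2 and R3 averaged it was 1 at 0.5 h and 2 at 2 h of IL-4. Leaving a replicate out gave 1 to 2 after 0.5 h of IL-4, and 2 to 4 after both 1 and 2 h. The count at 1 h of LPS was 5 to 8 with a replicate left out. From 0.5 to 1 h of LPS it was 2 with no filter and with R2 and R3 averaged, and 2 to 5 with a replicate left out, and from 2 to 4 h it was 1, 0 and 0 to 4. Between LPS and IL-4 at 0.5 h and for the change of that difference it was 4 to 7 with a replicate left out. Apart from the smaller sets tested, the cause was not tested. Over all genes, leaving out R2 or R3 gave 2234 and 2169 called over the IL-4 course in place of 5606, and leaving out R1 gave 6546.

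With the replicate block the LPS course called 9 genes and the IL-4 course 4, as without it, and 8 results of single genes passed the threshold that had not, with 0 lost. The numbers share no stated origin: the correlation of same-numbered deviations had medians of 0.499, 0.224 and 0.290 for R1, R2 and R3 over 36 pairs of groups each, with lowest values of 0.351, 0.0897 and 0.202 and highest of 0.713, 0.361 and 0.454, and 19 of 27 samples were closest to their own number. Values near 0 limit Il1r2 and Il1f9, and the read depth behind them is not known.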

Other observations

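Il1r1 and Il1rl2 shared part of their course under either stimulus, which was noticed in these data after their values were seen. Within each replicate number both genes were higher at 1 h of LPS than at 0.5 or 2 h, and higher at every IL-4 time than in untreated cells. At 2 h of LPS they had parted, with Il1r1 at 9, 5 and 17, above its untreated 3, 0 and 3. Il1rl2 was then at 3, 5 and 8, beside its untreated 4, 5 and 8. At 4 h of LPS Il1r1 was at 6, 5 and 6, above untreated, and Il1rl2 at 1, 0 and 2, below untreated. From 1 to 4 h of IL-4 the mean of Il1rl2 went from 51 to 33 and that of Il1r1 from 69.7 to 81.3. Between LPS and IL-4 at 4 h the log2 difference was -3.60 for Il1r1 and -4.22 for Il1rl2 (adjusted p = 9.68e-10).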
